A study of Homo sapiens with 6 samples.

Results

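The mRNA levels of 9 enzyme genes of non-essential amino acid synthesis were followed in LN229 cells, an established human glioblastoma line, with and without ursodeoxycholic acid (UDCA), a hydrophilic bile acid that is given to patients with cholestasis. The genes were ASNS for asparagine, ALDH18A1 and PYCR1 for proline, GOT1, GPT2 and GLUL for aspartate, alanine, glutamate and glutamine, CBS and CTH for cysteine, and PCK2, which makes phosphoenolpyruvate in mitochondria. They were taken by name, with earlier results of these data known, and all 9 were among the 33890 genes of the deposited table. The labels give 2 groups of 3 libraries: control cells without the drug, and cells exposed for 48 h to UDCA at 800 µM. All were of the 1 line, grown in DMEM with fetal bovine serum and antibiotics. The labels do not say whether replicate libraries stem from independent cultures. The spread that each p-value is read against is therefore that between these libraries, and it may be technical. By its title, the study asks about anticancer effects of UDCA in this tumour.

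A cell can build these amino acids from carbon of glycolysis and the citric acid cycle, with nitrogen passed on from glutamate and glutamine. When an amino acid runs short, or when other stresses act on the endoplasmic reticulum or the mitochondria, kinases phosphorylate the translation factor eIF2alpha, and the transcription factor ATF4 is then translated. ATF4 pairs with C/EBP proteins on a composite DNA element in genes of amino acid supply, and ASNS is a well-known target.

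Because that element can be read in sequence, it was searched for as TGATGNAA, on both strands, in windows from 250 bases before to 50 after the transcript starts of RefSeq (build GRCh38.p14). Of the 9 genes, 7 were matched to a window by symbol, and GPT2 and PYCR1 were not matched. The 8 letters were present for ASNS and GOT1, that is in 2 of 7 genes, and in 3.62% of all 35116 windows or 4.46% of 27305 gene symbols. A gene counted if any of its windows held them. Among 46 related genes with a window (lists below) 6 held the letters. The 5 stretches shown are those of ASNS and GOT1 and of the 3 related genes that hold the letters TGATGCAA on their own strand; each is written 5′ to 3′ on the strand of its gene, with the match in capitals.
ASNS: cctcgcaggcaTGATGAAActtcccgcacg
GOT1: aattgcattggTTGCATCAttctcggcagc
BCAT1: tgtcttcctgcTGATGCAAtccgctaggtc
SLC1A5: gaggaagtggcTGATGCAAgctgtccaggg
CEBPG: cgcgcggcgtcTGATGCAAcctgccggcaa
The ASNS stretch is chr7:97872458-97872487 on the minus strand, with its match 68 bases before the start. GOT1 has its match 198 bases before the start, in chr10:99430804-99430833 on the minus strand, and in the other orientation. Both stretches also lie inside an exon of the same gene in GENCODE 29, as does that of BCAT1. The SLC1A5 stretch does so for 13 of its 30 bases, and the CEBPG stretch for 0. The BCAT1 stretch is chr12:24949131-24949160 (minus strand, match 48 bases before the start), that of SLC1A5 is chr19:46784893-46784922 (minus strand, 97 bases) and that of CEBPG is chr19:33374060-33374089 (plus strand, 42 bases). Each distance is to the start of the window with the match. ASNS, BCAT1, SLC1A5 and CEBPG also have windows at other starts, and those held no match. For SLC1A5 these include the window 46788545 to 46788844, which holds the upstream end of the gene at 46788594. The SLC1A5 match thus lies inside the gene. All 5 of these genes were called higher with UDCA, as given below, where 45.1% of all genes tested were called higher. The other related genes with a match were ATF3, which was higher, SLC25A11, which was lower, and AHCYL2, which did not pass the test. AHCYL2 holds the same letters as GOT1 in the same orientation. Whether a match goes with a rise was not tested. A match describes these letters and does not show that a factor was bound there.

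Values below are FPKM, reads scaled to the exon length of the gene and to the total of the library. That length merges all annotated exons, whichever transcripts were present, so levels compare only roughly between genes. Log2 changes subtract the control mean from the UDCA mean of log2(FPKM + 1) and carry a standard error (SE). A gene was called at an adjusted p under 0.05 in limma, adjusted over the 14380 genes that reached 1 FPKM in 3 or more libraries. That scale understates the change of low genes, so ratios of the mean FPKM are given too. Libraries held 15988951 to 17743022 reads, recovered from the deposited values, and 3 reads in a gene of 1 kb came to 0.169 to 0.188 FPKM. Of 9 glial and glioma markers 7 were at 1 FPKM or more in control, GFAP and SOX9 were below it, and 6 were lower with UDCA (summed level 770 to 786 FPKM in control and 156 to 158 FPKM with UDCA). Listed markers of immune, endothelial and liver cells were each under 1 FPKM in both groups. Of 3 neuronal markers SYT1 rose, SNAP25 fell and RBFOX3 was under 1 FPKM (summed level 10.5 to 11.6 FPKM in control and 17.7 to 20.4 FPKM with UDCA). What part these marker changes have in the results was not tested. In bulk RNA, fewer cells of a kind and less RNA per cell cannot be told apart.

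With UDCA 8 of the 9 genes were higher, and ALDH18A1 was lower. The rises ran from 17.5-fold for ASNS to 1.42-fold for GLUL by the ratio of means. All 9 were called, where 80.8% of all genes tested were called, so passing the test is close to the background here. In one direction, 8 of 9 were called higher against 45.1% of all genes, and 1 of 9 lower against 35.7%. The 9 genes were chosen with earlier results of these data known, so such counts and medians are a description, not a test. The control and UDCA libraries did not overlap for any of the 9, as for 82.8% of all genes tested. The median change over the 9 was 1.57, and over all genes tested it was 0.095. ASNS reached the minimum level only through its UDCA libraries, and the other 8 were at 1 FPKM or more in all 6 libraries.

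**Figure D1:**
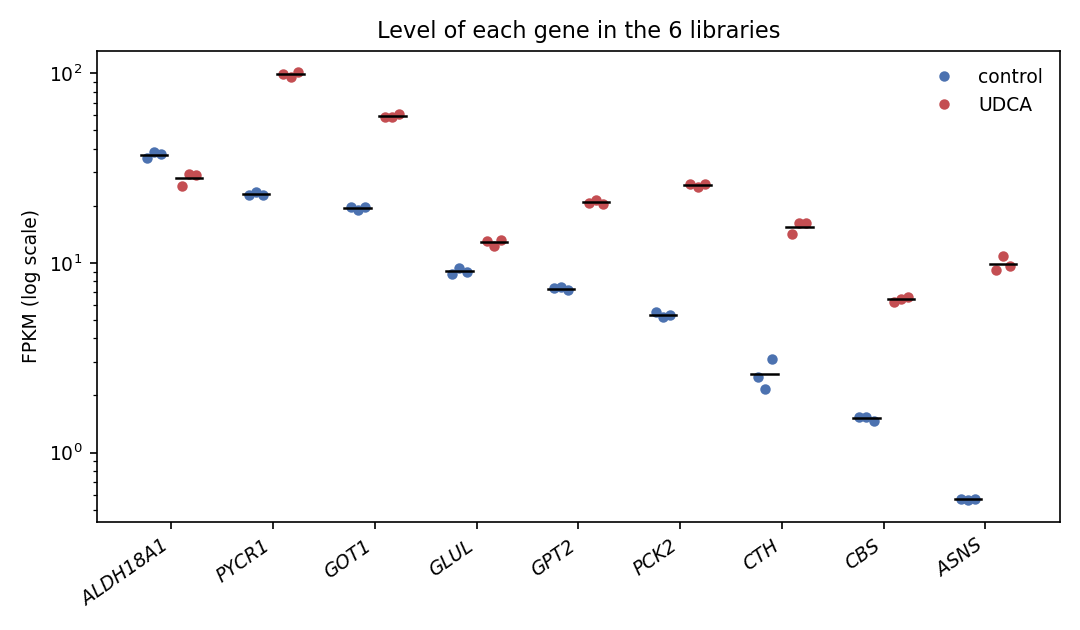
FPKM of the 9 genes (log axis) in each of the 3 control libraries (blue) and 3 UDCA libraries (red), ordered by the control mean; bars mark the group means (n = 3). ALDH18A1 is the only gene whose UDCA points lie under its control points, and ASNS goes from 0.566 to 9.92 FPKM.

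The order of the levels changed with treatment. In control cells it ran ALDH18A1, PYCR1, GOT1, GLUL, GPT2, PCK2, CTH, CBS and ASNS, from 37.2 ± 1.27 down to 0.566 ± 0.0042 FPKM (SD, n = 3), and no neighbours in that order overlapped. With UDCA it ran PYCR1, GOT1, ALDH18A1, PCK2, GPT2, CTH, GLUL, ASNS and CBS, from 98.8 ± 2.76 down to 6.42 ± 0.207 FPKM. There only ALDH18A1 and PCK2 overlapped as neighbours. The order within a group depends on the merged exon lengths. GLUL, with 9032 exon bases, had 4220 control reads, and PYCR1, with 2886 exon bases, had 3428. For ASNS and CBS the place also depends on how shared reads were counted.

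ASNS (ENSG00000070669, chromosome 7, 97852118 to 97872542, minus strand, GRCh38) encodes asparagine synthetase, which moves the amide nitrogen of glutamine onto aspartate. It stood at 0.567, 0.561 and 0.569 FPKM in control replicates 1 to 3 and at 9.21, 10.9 and 9.65 FPKM in UDCA replicates 1 to 3. The control libraries lay within 0.01 FPKM of each other, on 42, 43 and 45 reads, and every UDCA library was far above them, on 656, 828 and 730 reads. On the log2 scale ASNS rose by 2.80 (SE 0.068, limma adjusted p = 4.99e-08), with 0.841% of all genes tested showing a larger rise. In GENCODE 29, 44.6% of its exon bases lie within the read-through transcript AC079781.5 of the same strand. That gene was listed at 0 in 5 libraries and had 2 reads in UDCA replicate 3, so the ASNS level depends on how shared reads were counted, which is not given in the sources used here.

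Genes around asparagine and aspartate went separate ways. Of 8 genes listed for this step 7 were in the table and 6 were tested, with 4 higher, 1 lower and 1 not called. Beside these counts, 45.1% of all genes tested were called higher and 35.7% lower. This list and those below were chosen with earlier results of these data known, so their counts are a description, not a test. ASS1 (chromosome 9, 130444929 to 130501274), argininosuccinate synthetase, which joins aspartate to citrulline, was listed at 0.0394, 0.0572 and 0 FPKM in control and rose to 13.2, 12.6 and 13.98 FPKM. Control thus held 5 ASS1 reads in all and UDCA held 2023, and the gene was tested only because of its UDCA libraries (log2 change 3.79, SE 0.059, limma adjusted p = 7.27e-09). ASL, the next enzyme of arginine synthesis, fell 1.62-fold from 5.72 ± 0.425 to 3.52 ± 0.411 FPKM. DDO, D-aspartate oxidase, rose from 0.406 ± 0.199 to 2.53 ± 0.244 FPKM on 45 and 270 reads, and also passed the minimum through its UDCA libraries. NIT2, an omega-amidase of the asparagine and glutamine transaminase routes, rose 1.54-fold. ASNSD1, which resembles ASNS in sequence, did not pass at 21.3 ± 0.3004 and 21.7 ± 0.522 FPKM. The asparaginase gene ASRGL1 was under the minimum in every library, at 0.814 ± 0.0888 and 0.255 ± 0.0772 FPKM. Over the libraries the log2 ratio of ASNS to ASRGL1 was higher by 3.33 with UDCA, and by 5.29 with a pseudocount of 0.1 (2-sided exact permutation p = 0.1, adjusted p = 0.111 over 10 pairs), and p = 0.1 is the smallest that 3 against 3 allows.

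GOT1 (ENSG00000120053, chromosome 10, 99396870 to 99431569, minus strand) encodes the cytosolic aspartate aminotransferase, which swaps amino groups between aspartate and glutamate. Its level was 19.7, 18.9 and 19.6 FPKM in control and 58.6, 59.1 and 61.0 FPKM with UDCA. The UDCA libraries were within 3 FPKM of each other and all far above the control libraries, a rise of 3.07-fold (log2 change 1.57, SE 0.027, limma adjusted p = 1.05e-08). GOT2, the mitochondrial enzyme of the same reaction and its partner in the malate-aspartate shuttle, rose 1.28-fold, from 25.7 ± 0.469 to 32.8 ± 0.754 FPKM. So the ratio of GOT1 to GOT2, in FPKM, was 0.772, 0.723 and 0.775 in control and 1.82, 1.81 and 1.81 with UDCA: GOT2 was the higher of the pair in every control library and GOT1 in every UDCA library (difference of log2 ratios 1.23, exact permutation p = 0.1, adjusted p = 0.111 over 10 pairs). A gene on the opposite strand, AL391684.1, shares 19.3% of the GOT1 exon bases and rose from 1.06 to 2.16 FPKM on average.

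GPT2 (ENSG00000166123, chromosome 16, 46884378 to 46931297, plus strand) encodes the mitochondrial alanine aminotransferase, which makes alanine and 2-oxoglutarate from pyruvate and glutamate. It stood at 7.38, 7.46 and 7.16 FPKM in control and at 20.7, 21.4 and 20.5 FPKM with UDCA, and rose 2.85-fold (log2 change 1.39, SE 0.031, limma adjusted p = 3.69e-08). The groups were far apart beside their own spread, which was under 1 FPKM within each. GPT, the cytosolic enzyme, was low in both groups, at 1.17 ± 0.106 and 1.57 ± 0.144 FPKM. It was called higher (limma adjusted p = 0.0193), but that call was lost with scaling by the median ratio of genes (0.0611), without control replicate 1 (0.0559) or 2 (0.0568), without UDCA replicate 3 (0.0647) or with no filter on low values (0.06004). GPT2 exceeded GPT 6.33 ± 0.675-fold in control and 13.3 ± 1.48-fold with UDCA (exact permutation p = 0.1 for the log2 ratio, adjusted p = 0.111 over 10 pairs).

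GLUL (ENSG00000135821, chromosome 1, 182381704 to 182392206, minus strand) encodes glutamine synthetase, which adds ammonia to glutamate. Among the 8 genes that rose it moved least: 8.72, 9.45 and 8.998 FPKM in control and 13.0, 12.3 and 13.2 FPKM with UDCA. The lowest UDCA library was above the highest control library, and the rise was 1.42-fold (log2 change 0.46, SE 0.043, limma adjusted p = 4.69e-05).

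In the wider glutamate and glutamine list 7 of 8 tested genes were higher and 0 lower, and 2 more, GLS2 and GLUD2, were under the minimum. Among all genes tested the shares were 45.1% higher and 35.7% lower. GFPT1, which spends glutamine to start hexosamine synthesis, rose 6.20-fold, from 9.90, 9.34 and 10.0 FPKM to 62.0, 61.7 and 57.8 FPKM (log2 change 2.52, SE 0.039, limma adjusted p = 7.52e-09). BCAT1, the cytosolic branched-chain aminotransferase, rose 3.33-fold from 3.85 ± 0.242 to 12.8 ± 0.851 FPKM. Its mitochondrial counterpart BCAT2 did not pass, at 4.88 ± 0.0747 and 4.66 ± 0.353 FPKM. SLC1A5, a glutamine carrier of the plasma membrane, rose 2.27-fold from 41.8 ± 0.281 to 95.2 ± 2.13 FPKM. GLUD1, glutamate dehydrogenase, rose 1.21-fold. For the neutral amino acid carrier SLC38A2 the values were 83.2 ± 1.01 and 87.7 ± 2.96 FPKM. It was called at a limma adjusted p of 0.0431, which 7 of 12 alternatives lost (0.0608 to 0.255 in those), and with scaling by the median ratio its change was -0.035.

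**Figure D2:**
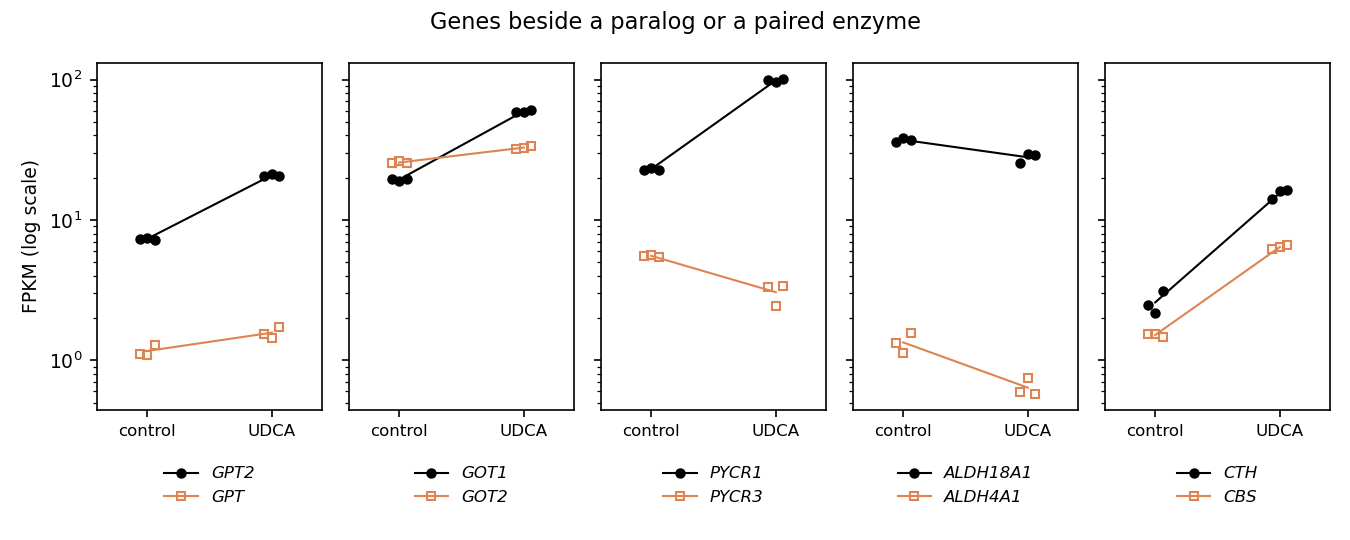
FPKM (log axis) of a gene (black circles) and of a paralog, an opposing enzyme or the preceding enzyme (orange squares) in the 3 control and 3 UDCA libraries, with lines joining the group means (n = 3). GOT1 crosses GOT2, and the distance between PYCR1 and its paralog PYCR3 is larger with UDCA. CTH and CBS both rise, CTH by the larger factor.

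PCK2 (ENSG00000100889, chromosome 14, 24094053 to 24110598, plus strand) encodes the mitochondrial phosphoenolpyruvate carboxykinase, which turns oxaloacetate into phosphoenolpyruvate. It went from 5.49, 5.20 and 5.31 FPKM to 26.2, 25.3 and 26.1 FPKM, a 4.84-fold rise (log2 change 2.08, SE 0.032, limma adjusted p = 7.27e-09). The 3 UDCA libraries differed by less than 1 FPKM. PCK1, the cytosolic enzyme known from liver and kidney, had 6 reads summed over control and 0 summed over UDCA, where PCK2 had 1153 and 5414.

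Other genes of oxaloacetate and malate went both ways: in that list 2 of 7 tested genes were higher, 3 lower and 2 not called. Among all genes tested 45.1% were higher and 35.7% lower. PC, pyruvate carboxylase, is among the enzymes that make oxaloacetate. It fell 2.87-fold, from 11.3, 11.5 and 11.9 FPKM to 4.28, 3.87 and 3.91 FPKM (log2 change -1.32, SE 0.045, limma adjusted p = 2.67e-07). MDH1, the cytosolic malate dehydrogenase, fell 1.47-fold from 34.4 ± 0.505 to 23.3 ± 0.378 FPKM, and SLC25A11, the 2-oxoglutarate carrier of the malate-aspartate shuttle, fell 1.43-fold. The 2 higher were MDH2, the mitochondrial malate dehydrogenase, at 1.15-fold, and the glutamate carrier SLC25A22, at 1.44-fold. The aspartate-glutamate carriers SLC25A12 and SLC25A13 did not pass; with scaling by the median ratio SLC25A13 was called lower (-0.15, limma adjusted p = 0.0158), as it was without UDCA replicate 3 (-0.086, 0.0460).

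In proline synthesis the 2 successive steps moved in opposite directions. ALDH18A1 (ENSG00000059573, chromosome 10, 95605929 to 95656706, minus strand) encodes the synthase that turns glutamate into pyrroline-5-carboxylate, and stood at 35.9, 38.4 and 37.4 FPKM in control and at 25.5, 29.4 and 29.1 FPKM with UDCA. UDCA replicate 1 was the lowest of the 6, and the highest UDCA library was still under the lowest control library. ALDH18A1 fell 1.33-fold, by 0.40 on the log2 scale (SE 0.057, limma adjusted p = 0.000476). PYCR1 (ENSG00000183010, chromosome 17, 81932384 to 81942412, minus strand), the mitochondrial reductase that finishes proline, stood at 22.9, 23.5 and 22.7 FPKM in control and at 99.1, 95.9 and 101 FPKM with UDCA. It rose 4.29-fold (log2 change 2.05, SE 0.028, limma adjusted p = 3.99e-09) and had the highest FPKM of the 9 in treated cells. The ratio of PYCR1 to ALDH18A1, chosen after its values were seen, was 0.637, 0.613 and 0.606 in control and 3.89, 3.27 and 3.49 with UDCA. Other annotated genes share 29.7% of the PYCR1 exon bases; the one listed, MYADML2, held 39 reads in control and 11 with UDCA.

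PYCR3, the cytosolic paralog of PYCR1, fell 1.82-fold from 5.58, 5.61 and 5.49 FPKM to 3.34, 2.44 and 3.40 FPKM (log2 change -0.70, SE 0.097, limma adjusted p = 0.000417). UDCA replicate 2 was the lowest library, and the groups did not overlap. Per library PYCR1 exceeded PYCR3 4.14 ± 0.0478-fold in control and 33.0 ± 5.48-fold with UDCA. The log2 ratio was higher by 2.76 (exact permutation p = 0.1, adjusted p = 0.111 over 10 pairs).

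Genes that break proline down or make its precursor by another route were low or fell. PRODH, proline dehydrogenase, had 0 reads in control and 3 with UDCA in all. ALDH4A1, which oxidizes pyrroline-5-carboxylate back to glutamate, fell 2.10-fold from 1.34 ± 0.220 to 0.639 ± 0.0947 FPKM; it passed the minimum through its control libraries, and 41.1% of its exon bases are shared with another gene. OAT, which links ornithine to the same intermediate, fell 1.63-fold, from 24.6, 24.4 and 23.1 FPKM to 14.8, 15.1 and 14.5 FPKM (log2 change -0.66, SE 0.033, limma adjusted p = 1.66e-06). PEPD, a dipeptidase that frees proline, did not pass at 14.2 ± 0.683 and 14.3 ± 0.561 FPKM. The ratio of ALDH18A1 to ALDH4A1, in FPKM, was 27.2, 33.8 and 23.8 in control and 42.9, 39.3 and 50.6 with UDCA, so the groups did not overlap. Its test depended on the pseudocount, since ALDH4A1 is low: the log2 ratio differed by 0.11 with overlapping libraries at a pseudocount of 1 (exact permutation p = 0.4) and by 0.55 at 0.1 (exact permutation p = 0.1).

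Both enzymes of transsulfuration, the route from homocysteine to cysteine, rose. CBS (ENSG00000160200, chromosome 21, 43053191 to 43076943, minus strand), cystathionine beta-synthase, which joins homocysteine to serine, stood at 1.54, 1.54 and 1.46 FPKM in control and at 6.20, 6.44 and 6.62 FPKM with UDCA. It rose 4.24-fold (log2 change 1.56, SE 0.048, limma adjusted p = 1.61e-07), with the 3 libraries of each group close together. CTH (ENSG00000116761, chromosome 1, 70411218 to 70439851, plus strand), cystathionine gamma-lyase, which then releases cysteine, stood at 2.49, 2.17 and 3.11 FPKM in control and at 14.2, 16.2 and 16.3 FPKM with UDCA. Its control libraries were the most spread of the 9 genes for their level, on 100, 90 and 133 reads, and the lowest UDCA library was still far above the highest control library. CTH rose 6.01-fold (log2 change 2.21, SE 0.10, limma adjusted p = 1.20e-06). CTH exceeded CBS 1.72 ± 0.370-fold in control and 2.42 ± 0.122-fold with UDCA (exact permutation p = 0.1 for the log2 ratio, adjusted p = 0.111 over 10 pairs). CBS has a near-identical annotated copy, CBSL, whose listed reads came to 6 in control and 74 with UDCA, so the level of CBS is uncertain where reads were split or dropped between them.

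Genes before and after these steps went both ways, with 4 of 11 tested genes of methionine, cysteine and sulfide metabolism higher and 5 lower. All genes tested went both ways too, with 45.1% higher and 35.7% lower. AHCY, which releases homocysteine, fell 1.75-fold, from 44.3, 47.1 and 48.1 FPKM to 25.3, 27.5 and 26.8 FPKM. MTR, methionine synthase, which takes homocysteine back to methionine, fell 1.45-fold, while MTRR, which reactivates it, rose 1.35-fold. MAT2A, the methionine adenosyltransferase, fell 1.14-fold from 75.3 ± 1.73 to 65.9 ± 1.02 FPKM, and its regulatory partner MAT2B rose 1.17-fold. MPST, which moves sulfur from mercaptopyruvate, rose 2.70-fold from 3.67 ± 0.128 to 9.88 ± 0.715 FPKM (log2 change 1.22, SE 0.057, limma adjusted p = 1.20e-06). SUOX, sulfite oxidase, fell 2.48-fold from 7.17 ± 0.547 to 2.89 ± 0.310 FPKM (log2 change -1.07, SE 0.077, limma adjusted p = 1.21e-05). AHCYL1, an AHCY relative, was the other gene higher, at 1.55-fold. CSAD, of taurine synthesis, was the other lower, at 6.91 ± 0.359 and 6.03 ± 0.299 FPKM; that call (limma adjusted p = 0.0189) was lost without control replicate 2 (0.0627) or UDCA replicate 1 (0.0595). CDO1, cysteine dioxygenase, had 3 reads in control and 0 with UDCA.

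**Figure D3:**
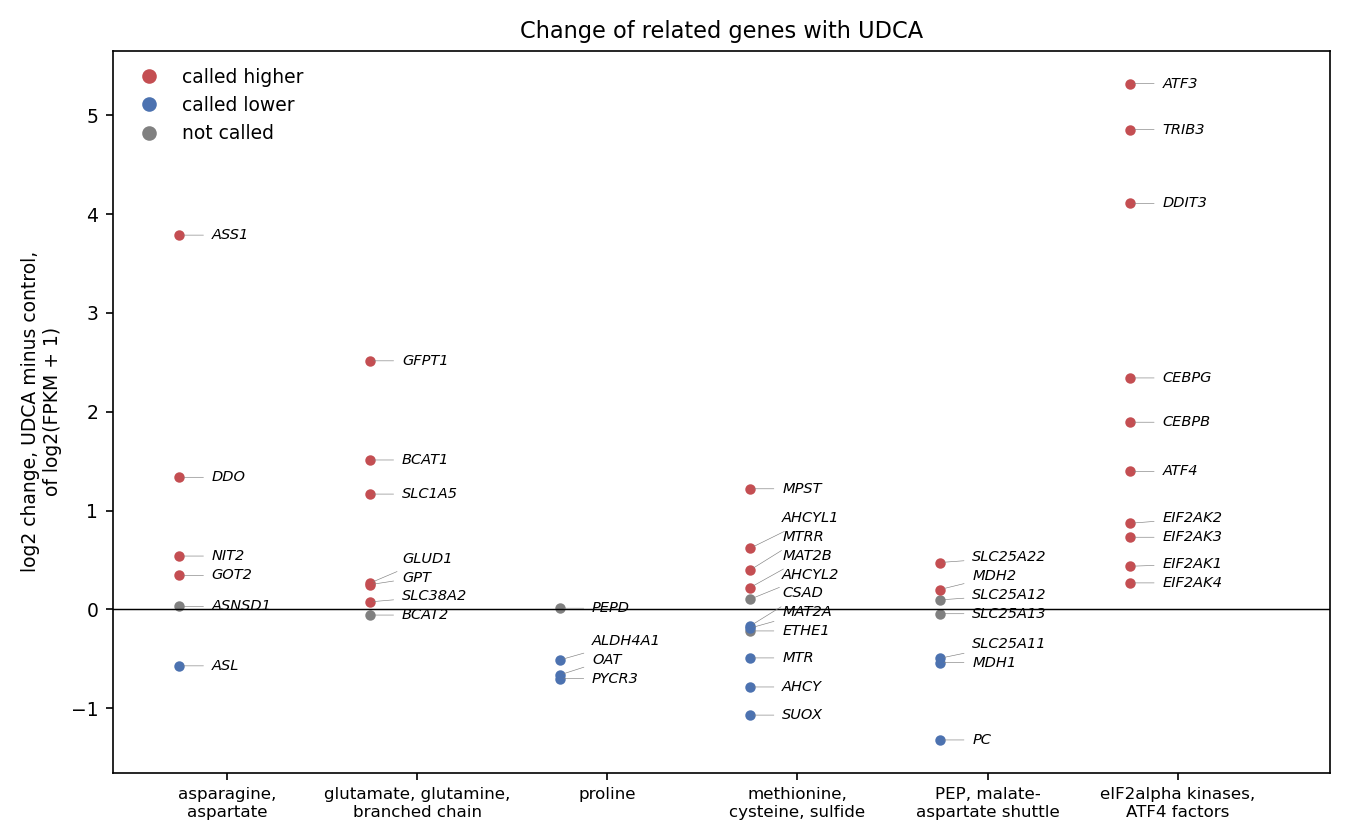
Log2 change, UDCA minus control, of log2(FPKM + 1) for 45 of the 47 tested genes of the 6 related lists; each point is 1 gene, red where called higher, blue where called lower and grey where not called by limma. The 10 genes of the last list lie above 0, while the cysteine and malate lists hold genes on both sides.

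In the list of eIF2alpha kinases and of factors and targets around ATF4, 10 of 10 genes were called higher, beside 45.1% of all genes tested, with a median change of 1.65. This list was also chosen with earlier results of these data known, so its count is a description, not a test. ATF4 stood at 173, 171 and 167 FPKM in control and at 437, 445 and 468 FPKM with UDCA, a 2.64-fold rise (log2 change 1.397, SE 0.030, limma adjusted p = 3.10e-08). Of the C/EBP proteins that pair with it, CEBPG rose 5.59-fold from 7.41 ± 1.00 to 41.5 ± 0.990 FPKM and CEBPB rose 3.81-fold from 35.4 ± 1.97 to 135 ± 15.5 FPKM. The ATF4 targets ATF3, TRIB3 and DDIT3 rose 55.1-fold, 32.0-fold and 19.7-fold by the ratio of means, beside 17.5-fold for ASNS; 39.6% of the DDIT3 exon bases are shared with other genes. All 4 kinases of eIF2alpha were higher by smaller factors: EIF2AK2, the kinase of double-stranded RNA, 1.93-fold, EIF2AK3, that of the endoplasmic reticulum, 1.84-fold, EIF2AK1, the heme-regulated kinase, 1.36-fold, and EIF2AK4, which senses uncharged tRNA, 1.22-fold. Over the 6 related lists together, 28 of 47 tested genes were higher and 12 lower, beside 45.1% and 35.7% of all genes tested. The median change of the 47 was 0.25, beside 0.095 for all genes tested. Of the 57 genes, 3 were not among those listed and 7 were under the minimum.

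**Figure D4:**
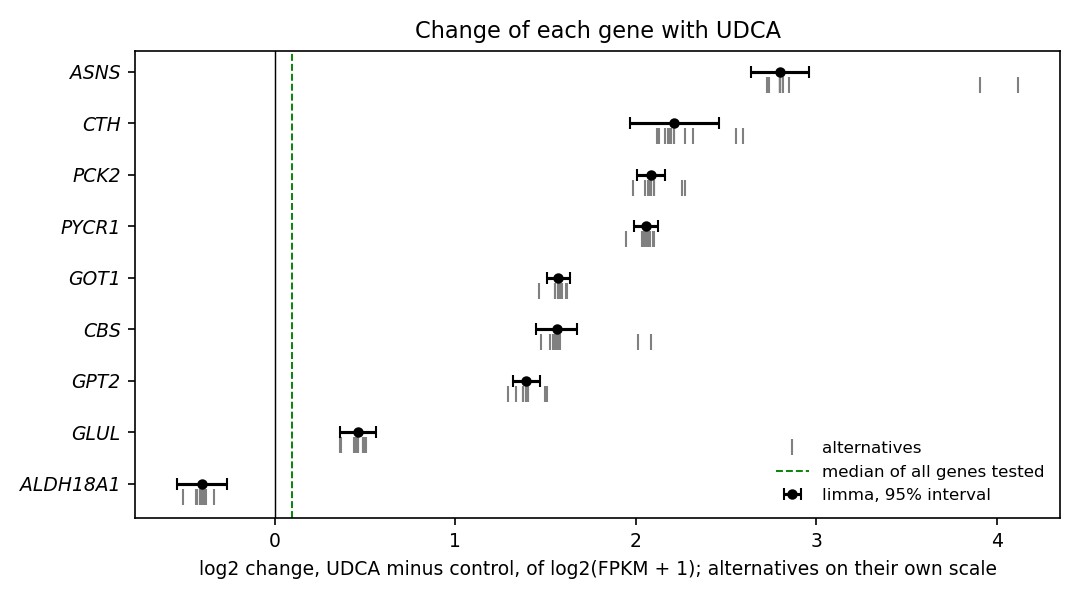
Log2 change, UDCA minus control, of each of the 9 genes on the log2(FPKM + 1) scale with its 95% confidence interval from limma (black), and the same change under 12 other settings (grey ticks, some on a log2 scale with a smaller pseudocount). The green line marks the median of all genes tested, 0.095; 8 genes lie to its right under every setting shown and ALDH18A1 lies left of 0.

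Genes most like each of the 9 were sought among all tested genes with a symbol, by the Euclidean distance over the 6 libraries between log2(FPKM + 1) values centred on the control mean. The smallest distance was that of PYCR1 to TNFRSF10B, a death receptor for TRAIL, at 0.038; it went from 37.3 ± 0.303 to 159 ± 2.72 FPKM and was also nearest to PCK2, at 0.068. GOSR2, a vesicle-fusion protein of the Golgi, was nearest to both GOT1 (0.059) and CBS (0.063). PATL1 was nearest to GPT2 (0.048), TBRG1 to GLUL (0.057) and SAMD9 to ALDH18A1 (0.078). ASNS and CTH had no gene as close: ANKRD22, with no control reads, lay at 0.116 from ASNS, and the non-coding gene LINC01703 at 0.188 from CTH. With 2 groups this distance mostly reads the size of the change, and it says nothing on shared function.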

How the data were processed

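Per the labels' protocols, polyadenylated RNA was made into Illumina TruSeq libraries. HISAT2, Bowtie2 2.0.6 and GRCh38 appear in the submitters' processing notes without stated roles. The counting program and its use of strand are, in the sources used here, not given. The deposited values are FPKM: the header names no unit, and multiplying a value by its gene's exon length (GENCODE 29, exons merged) gives a whole number of steps, within 0.01, for 100% of values in each library. These whole numbers were read as reads, and counting error is all that a floor of 3 reads covers. All 33890 positions equal those of GENCODE 29, which gave symbols.

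Limma 3.58.1 (limma-trend, R 4.3.3, group as the only term, 2-sided, Benjamini-Hochberg) was fitted to log2(FPKM + 1) of all 14380 genes at 1 FPKM or more in 3 or more libraries, after a test on simulated data. Ratios of 10 pairs of genes were compared with exact permutation tests over libraries; ratios to a gene with almost no reads are not given. Libraries of a group differed by more than sampling noise (chi-square over its degrees of freedom 1.67 to 2.73). Each was counted as 1 sample, but this spread does not show that they stem from independent cultures. Alternatives were a pseudocount of 0.1, no filter, quantile and median-ratio scaling, voom on the reads, a replicate block and leaving out each library.

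The 9 genes and the lists were chosen with earlier results of these data known. Named genes were all 9, genes of the 6 related lists and, for likeness, the 2 nearest genes per member, of which the nearest are given; some listed genes are not reported here. Figures used Python 3.11.15 and matplotlib 3.10.9.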

Additional observations from a re-analysis of the deposited data

How the results depend on the processing

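For the 9 genes, all 108 alternative values (12 settings each) kept their direction and their side of the threshold. The changes of low genes were larger with a pseudocount of 0.1 or with voom: ASNS ranged from 2.72 to 4.12 and CBS from 1.48 to 2.08. ALDH18A1 ranged from -0.51 to -0.34. With the replicate block, 8 of the 9 were again higher and 1 lower, and 28 related genes higher and 12 lower. Deviations of same-numbered libraries had correlations of -0.0012 to 0.014, beside -0.050 to 0.042 for libraries of different number. Such values cannot show whether same-numbered libraries share a culture or a batch. Of 564 values for the 47 related genes, 533 kept direction and side. Without a change of sign, 21 lost the call and 3 gained it. The other 7 changed sign. Among those 7, SLC38A2 with median-ratio scaling also lost its call, and ASNSD1 with that scaling gained one. The sign changes were in genes near 0: ASNSD1 with quantile (-0.012) and median-ratio scaling (-0.076, limma adjusted p = 0.0302), SLC38A2 with median-ratio scaling (-0.035), and PEPD with quantile (-0.087) and median-ratio scaling (-0.093) and when single libraries were left out (-0.019 without control replicate 1 and -0.018 without UDCA replicate 2, in a range of -0.019 to 0.045). BCAT2 was called lower with median-ratio scaling (-0.15). Median-ratio scaling moved the median of all genes from 0.095 to 0.0023. Counts of related genes ranged from 25 to 28 higher and from 11 to 15 lower over all settings. Genes under 1 FPKM in 4 or more libraries were outside the test; with no filter 7743 of 33890 genes were called higher and 6708 lower.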
